A study of Mus musculus with 4 samples.

Results

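The 10 genes described here code for the enzymes that build triglyceride from glycerol-3-phosphate in the mouse liver. They are the glycerol-3-phosphate acyltransferases Gpam, Gpat3 and Gpat4, the acylglycerol-phosphate acyltransferases Agpat2 and Agpat3, the lipins Lpin1, Lpin2 and Lpin3, and the diacylglycerol acyltransferases Dgat1 and Dgat2. They were taken by gene symbol from a table of 54532 genes, and all 10 matched 1 gene each. RNA-seq was done on 4 livers of mice with a liver-specific knockout of Cpt1a that had been fasted for 24 h. Comparisons come from 3 tables of the authors, which set this knockout and a Cpt2 group against a reference group and against each other. The table headers call the knockout groups Cpt1a_AlbCre and Cpt2_AlbCre. AlbCre is Cre recombinase under the albumin promoter, which acts in hepatocytes and leaves the gene in the other cells of the liver. The reference group is headed Rab30Cpt2_f, a name that the sources used here do not explain, and the series' design text names littermate controls, fasted in the same way. Ages, sexes and the number of libraries behind the Cpt2 and reference groups are not analysed here.

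Triglyceride is made at the endoplasmic reticulum and the outer mitochondrial membrane in a short series of steps. An acyltransferase adds a fatty acid to glycerol-3-phosphate, an AGPAT adds another to give phosphatidic acid, a lipin removes the phosphate to give diacylglycerol, and a DGAT adds the last fatty acid. Diacylglycerol and phosphatidic acid are also the branch points to phospholipids. Lipin 1 has a further role in the nucleus, where it works with PPARA and PGC-1alpha on genes of fatty acid oxidation, and its liver transcript is known to rise in fasting. Cpt1a and Cpt2 code for the outer and inner membrane enzymes that carry long-chain fatty acids into mitochondria, the alternative fate of the same acyl-CoA.

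The livers had 13138884 to 14116441 counts each. No pair was a repeat of 1 library, since the chi-square per gene lay between 20.5 and 68.1. Whether they are separate mice is not in the labels, and their spread may then be technical. Cpt1a was at 24.4 to 36.9 FPKM (fragments per kilobase of gene and sequencing depth) and was 6.91-fold lower than in the reference group in the authors' deposited table (adjusted p = 5.27e-51). The Cpt2 transcript was not lower in the Cpt2 group, with a log2 fold change of −0.07 (adjusted p = 0.837) in the authors' deposited table, so this gene does not check that label. All 10 hepatocyte markers were present, at 24846 to 34464 FPKM summed. Adipocyte markers, which matter here because fat cells are rich in several of these enzymes, were at or near 0, with Lep and Retn at 0 counts in all 4 livers and a summed level of 0.068 to 0.288 FPKM over 5 markers. In bulk tissue, fewer cells of a type and less RNA per cell cannot be told apart.

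Promoter windows of the 3 lipins and of Gpat3 are shown first, to set the members of the lipin family beside the gene called higher against the reference in both groups. Each window runs from 250 bases before to 50 bases after a RefSeq gene start (build GRCm38.p6), 5′ to 3′ on the gene's strand, and 7 of the 10 genes had at least 1 window (11 in all). Gpat4, Dgat1 and Dgat2 had none, so the choice was made among the other 7. For Lpin2 and Lpin3, which have 3 and 2 windows, the one with the lowest coordinate is shown. Capitals mark CACGTG (the E-box), TGACGTCA (cyclic AMP response element), CCAAT, the DR1 element, the glucocorticoid response element and GGGCGG (GC box), searched on both strands.
Gpat3 promoter, chr5:100845979-100846278, plus strand: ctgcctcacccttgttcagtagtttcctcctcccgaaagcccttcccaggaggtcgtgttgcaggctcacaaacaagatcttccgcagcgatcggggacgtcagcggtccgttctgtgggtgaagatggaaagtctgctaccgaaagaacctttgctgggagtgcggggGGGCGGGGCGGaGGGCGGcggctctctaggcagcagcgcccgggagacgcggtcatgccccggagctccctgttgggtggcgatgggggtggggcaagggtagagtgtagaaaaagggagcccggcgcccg
Lpin1 promoter, chr12:16610917-16611216, minus strand: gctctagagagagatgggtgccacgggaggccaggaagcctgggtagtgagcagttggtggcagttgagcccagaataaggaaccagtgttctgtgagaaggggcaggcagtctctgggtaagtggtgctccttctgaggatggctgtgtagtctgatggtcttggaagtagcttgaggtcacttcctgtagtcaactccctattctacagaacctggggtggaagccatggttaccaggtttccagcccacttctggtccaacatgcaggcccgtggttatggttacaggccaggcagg
Lpin2 promoter, chr17:71183282-71183581, plus strand: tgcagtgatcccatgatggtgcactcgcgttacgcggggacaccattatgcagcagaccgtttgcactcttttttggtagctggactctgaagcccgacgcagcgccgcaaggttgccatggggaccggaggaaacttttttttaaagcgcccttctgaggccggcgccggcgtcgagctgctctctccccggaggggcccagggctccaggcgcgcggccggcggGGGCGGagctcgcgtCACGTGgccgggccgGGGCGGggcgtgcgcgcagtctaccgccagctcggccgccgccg
Lpin3 promoter, chr2:160880420-160880719, plus strand: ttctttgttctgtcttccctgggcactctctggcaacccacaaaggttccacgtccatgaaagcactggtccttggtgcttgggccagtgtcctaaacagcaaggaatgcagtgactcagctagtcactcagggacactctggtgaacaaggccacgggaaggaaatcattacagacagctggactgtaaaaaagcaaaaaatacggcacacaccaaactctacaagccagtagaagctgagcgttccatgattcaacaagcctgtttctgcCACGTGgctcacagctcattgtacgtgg
The Gpat3 window held 3 GC boxes, at bases 170, 175 and 182, of which those at 170 and 175 overlap. The Agpat2 window, not shown, also held 3, at bases 209, 214 and 275. The Lpin2 window shown held an E-box at base 242 between GC boxes at bases 227 and 257, and the Lpin3 window shown an E-box at base 273. The other windows of these 2 genes held no E-box. Those of Lpin2 held a GC box in 1 and 3 CCAAT matches in the other, and that of Lpin3 a GC box. None of the 6 motifs was found in the Lpin1 window, nor in the window of Agpat3. Over all 32851 promoter windows, 7.15% held an E-box, 35.7% a GC box, 37.4% CCAAT, 1.79% the cyclic AMP response element, and 0.0396% and 0.0091% the DR1 and glucocorticoid elements. A match is a run of letters and not evidence of a factor bound there.

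In the knockout livers 6 of the 10 genes had means of 39.8 FPKM or more and the other 4 had means of 9.07 FPKM or less. Dgat2 was the most abundant at 118 ± 7.88 FPKM (SD, n = 4), and its lowest liver was above the highest liver of every other member. Agpat2, Lpin2, Gpat4, Agpat3 and Gpam followed at means of 64.1, 59.4, 53.9, 43.0 and 39.8 FPKM, and the ranges of neighbours in this order overlapped. Dgat1 and Lpin1 came next at 9.07 and 9.04 FPKM, indistinguishable within their spread, then Gpat3 at 6.12 and Lpin3 at 1.54 FPKM. Their ranges lay below that of Gpam, and those of Gpat3 and Lpin3 overlapped with no neighbour. The median SD of log2(FPKM + 1) was 0.16 over the members and 0.20 over 10859 genes with a mean of at least 1 FPKM. Liver 1 had the highest value of 6 members and liver 3 the lowest of 4.

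**Figure D1:**
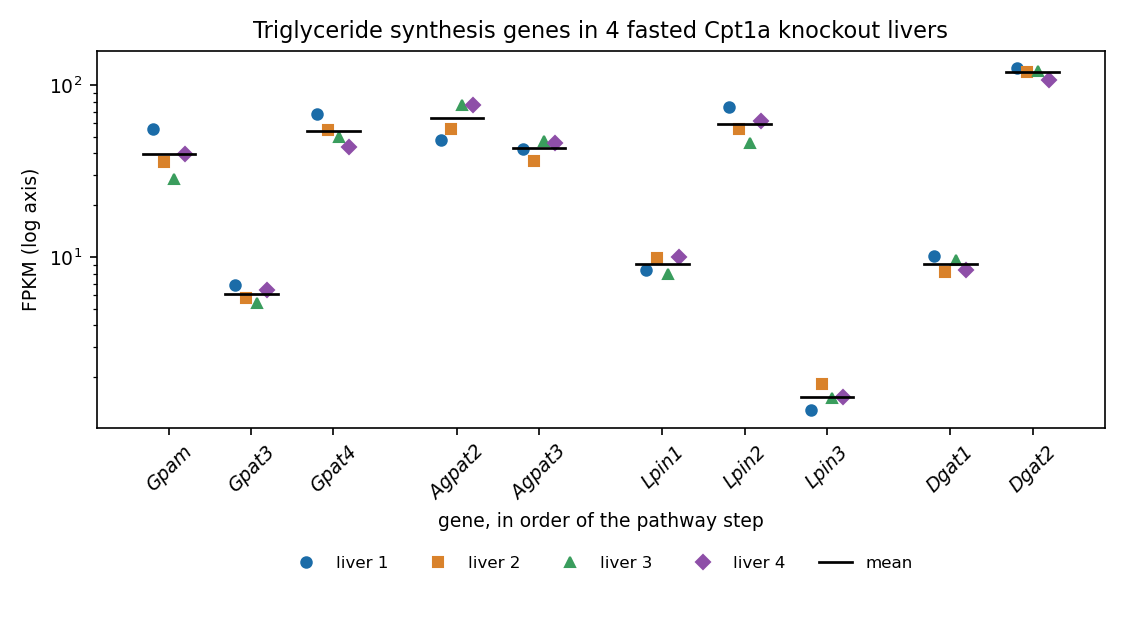
FPKM on a log axis for each of the 10 genes in the 4 Cpt1a knockout livers, with 1 point per liver and a bar at the mean, grouped by pathway step. Dgat2 stands above all others at 107 to 126 FPKM, and Lpin3 is lowest at 1.28 to 1.84 FPKM.

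Within each step, the level of a gene was measured as a share of the FPKM summed over the members of that step. Dgat2 held 92.9 ± 0.498% of the DGAT transcript (SD, n = 4), 12.4 to 14.7 times the level of Dgat1. Lpin2 held 84.6 ± 2.73% of the lipin transcript, Lpin1 13.1 ± 2.17% and Lpin3 2.27 ± 0.586% (SD, n = 4 each). Gpat4 and Gpam held 54.3 ± 4.91% and 39.5 ± 4.79% of the glycerol-3-phosphate acyltransferase transcript, and Gpat3 6.23 ± 0.80% (SD, n = 4 each). Agpat2 held 59.4 ± 4.41% and Agpat3 the rest of the sum of these 2 genes (SD, n = 4). Agpat1, which is no member, had a mean of 5.57 FPKM.

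**Figure D2:**
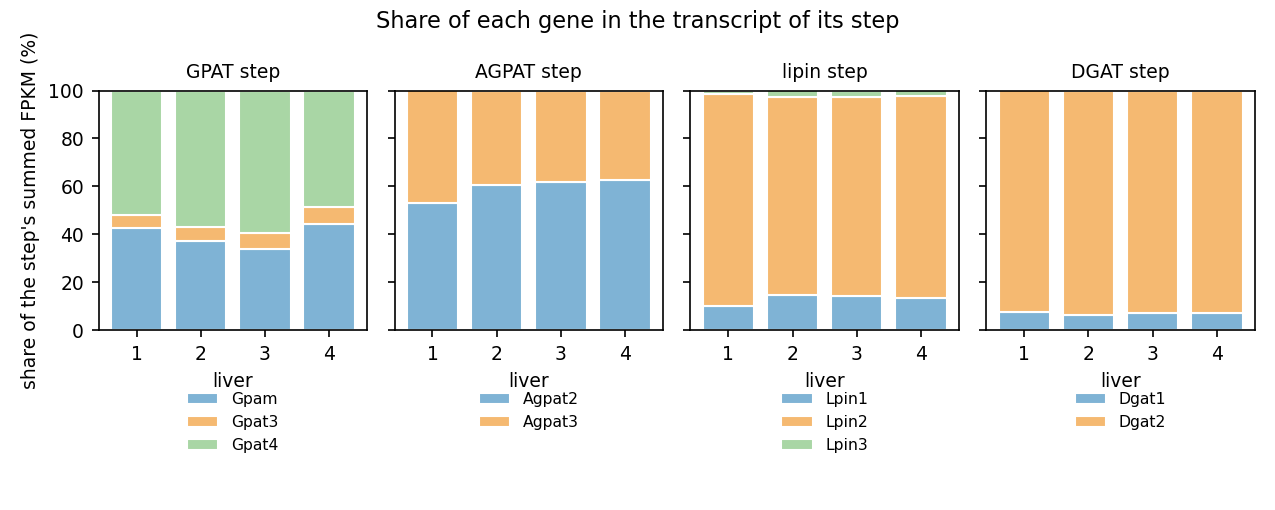
Stacked bars give each gene's share (%) of the summed FPKM of its step in livers 1 to 4, with panels for the GPAT, AGPAT, lipin and DGAT steps. Lpin2 holds 82.6 to 88.5% of lipin transcript and Dgat2 92.5 to 93.6% of DGAT transcript in every liver, while Gpam and Gpat4 share the GPAT step.

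Against the reference group, Lpin1, Dgat1 and Dgat2 were lower and Gpat3 higher in the Cpt1a knockout, and the other 6 members did not pass the test. A gene is called here when the adjusted p in the authors' deposited table is below 0.05, and the test behind it is not given in the sources used here. That is 4 of 10 members, against 14.4% of all genes tested in that comparison. In the lower direction it is 3 of 10, against a background of 7.60%, and in the higher direction 1 of 10, against 6.81%. The median log2 fold change of the members was −0.37, and over all genes it was −0.00, both from the sum described below. This table of the authors lists only genes with an unadjusted p up to 0.05 and so omits Gpam, Agpat2, Agpat3 and Lpin2. For these, the log2 fold changes of the other 2 tables were summed, which came within 0.0124 of the listed value for each of the 6 listed members. Of the 10 hepatocyte markers, 6 were called lower in the authors' deposited table and 0 higher, and 2 of 10 Kupffer cell and macrophage markers and 3 of 10 lymphocyte markers were called higher. Their part in the result was not tested. The libraries of the reference group are not among the samples analysed here, and nothing in the sources says that they were made together with the knockout livers, so any batch and the group cannot be told apart. Dgat1 and Gpat3 were no longer called at an adjusted p below 0.01, which left 2 members, and only Lpin1 changed at least 2-fold.

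In the Cpt2 group against the same reference group, Gpat3 and Lpin3 were higher and Gpat4, Agpat2 and Lpin1 lower in the authors' deposited table. This is 5 of 10 members called, against 21.0% of all genes tested there. By direction it is 2 of 10 higher, against 10.3%, and 3 of 10 lower, against 10.7%. The median log2 fold change of the members was 0.28, and −0.03 over all genes tested. Hepatocyte markers were called lower for 7 of 10 in the authors' deposited table. Of 10 Kupffer cell and macrophage markers, Clec4f, Vsig4 and Timd4 were called lower and Cd68 higher (log2 fold change 2.60) in the authors' deposited table, and 9 of 10 had a negative log2 fold change. The part of both cell types in the result was not tested. Gpam had an adjusted p of 0.0565 in the authors' deposited table. It was called (0.0491) when the authors' p-values were adjusted anew by Benjamini-Hochberg over genes with a mean of 10 counts or more. That mean was taken over the 4 Cpt1a knockout livers, which are not part of this comparison. Because both comparisons use the same reference group, their values are given side by side and no overlap is drawn from them.

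The direct comparison with the Cpt2 group showed lower transcript levels in the Cpt1a knockout for 8 of the 10 members, with at least 1 at each step. Gpam, Gpat3, Agpat3, all 3 lipins, Dgat1 and Dgat2 were lower in the authors' deposited table, none was higher, and Gpat4 and Agpat2 did not pass. The background was 28.8% of all genes tested called in either direction, and 14.6% called lower. The median log2 fold change of the members was −0.75, against 0.05 over all genes tested. For each of these 8 genes, all 4 livers lay below the authors' mean of the Cpt2 group. Of the 8, Gpat3 and Lpin3 changed at least 2-fold. Of 10 Kupffer cell and macrophage markers, the authors' deposited table has 9 called higher and 1 lower in this comparison, at 166 to 203 FPKM summed in the 4 livers. It has 1 hepatocyte marker called higher and 2 lower, and 5 of 10 lymphocyte markers higher, at 3.89 to 5.45 FPKM summed. The part of these cell types in the result was not tested. The Cpt2 libraries come from an earlier submission, per the series' design text, so here too any batch cannot be told apart from the group.

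**Figure D3:**
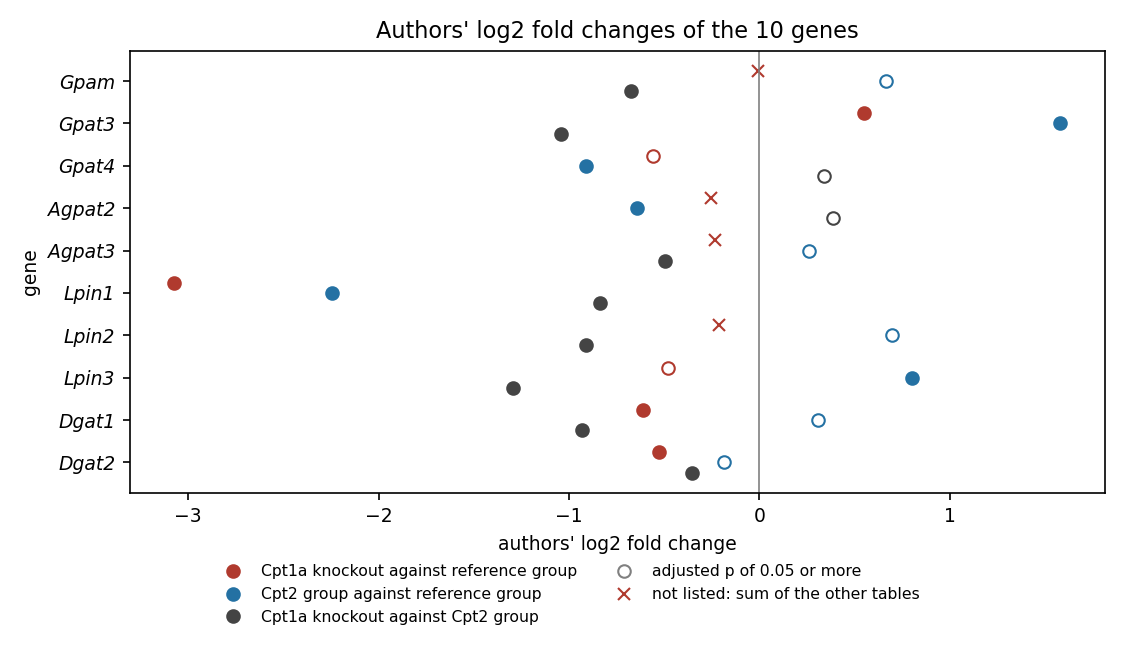
The authors' log2 fold changes of the 10 genes (x axis) in the 3 comparisons, by colour. Filled points have an adjusted p below 0.05, open points do not, and crosses are sums of the other 2 tables for genes not listed. The direct comparison of the Cpt1a knockout with the Cpt2 group (grey) is filled and below 0 for 8 genes, and Lpin1 lies farthest left at −3.07 and −2.24 against the reference group.

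The acyltransferases that start the pathway did not move as a block. Gpat3 (chr5:100845713-100899102, plus strand), an enzyme of the endoplasmic reticulum whose window is shown above, was at 6.85, 5.75, 5.42 and 6.45 FPKM in livers 1 to 4. An antisense gene over it, 4930458D05Rik, had 16 to 34 counts where Gpat3 had at least 301. Its normalised counts (as the authors scaled them for that comparison) were 349, 294, 278 and 330.2, all above the authors' reference mean of 213. The authors' deposited table gave a 1.47-fold higher level in the Cpt1a knockout (log2 fold change 0.55, adjusted p = 0.0171). In the Cpt2 group Gpat3 rose 2.99-fold against the reference (log2 fold change 1.58, adjusted p = 1.45e-20) in the authors' deposited table, the smallest adjusted p of the 10 genes in that comparison. Scaled for the direct comparison, the livers had 366, 306, 288 and 345 normalised counts against a mean of 671 in the Cpt2 group, and the gene was 2.06-fold lower (adjusted p = 3.55e-10) in the authors' deposited table. So Gpat3 lay above the reference in both groups, and less far above it in the Cpt1a knockout.

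Gpat4 (chr8:23171265-23208346, minus strand), the more abundant acyltransferase of the endoplasmic reticulum, was at 67.6, 54.5, 49.9 and 43.6 FPKM. It had a log2 fold change of −0.56 in the Cpt1a knockout (adjusted p = 0.0579) and fell 1.88-fold in the Cpt2 group (log2 fold change −0.91, adjusted p = 3.77e-05) in the authors' deposited tables against the reference. The direct comparison in the authors' deposited table gave 0.34 (adjusted p = 0.111), although all 4 livers, at 6887, 5519.8, 5072 and 4451 normalised counts, were above the Cpt2 mean of 4333. Its sign against the reference was thus opposite to that of Gpat3 in both groups. Gpam (chr19:55069734-55099451, minus strand), the mitochondrial acyltransferase, was at 55.3, 35.7, 28.4 and 39.8 FPKM and had the widest spread of the 10 genes (1.95-fold from lowest to highest). Its level in the Cpt1a knockout was close to the reference, with a summed log2 fold change of −0.01 from the authors' deposited tables. In the Cpt2 group it was 0.67 (adjusted p = 0.0565) in the authors' deposited table. Directly, the livers had 3228, 2076, 1654 and 2329 normalised counts against a Cpt2 mean of 3704, and Gpam was 1.60-fold lower, as the authors' deposited table gives it (adjusted p = 0.0272).

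The pattern of Gpam over the 4 livers, high in liver 1 and low in liver 3, was shared most closely by Slc22a23, Ddah1 and Slc25a30 among 4916 other protein-coding genes with a mean of at least 5 FPKM. Their Euclidean distances to it, on log2(FPKM + 1) centred over the 4 livers, were 0.054, 0.079 and 0.106. This is a description of 4 libraries only.

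The AGPAT step divided between its genes. Agpat2 (chr2:26593057-26604417, minus strand), whose loss causes lipodystrophy, was at 47.6, 55.5, 76.7 and 76.8 FPKM. Livers 1 and 2 were lower than livers 3 and 4. Its summed log2 fold change against the reference was −0.26 in the Cpt1a knockout, and it fell 1.56-fold in the Cpt2 group (log2 fold change −0.64, adjusted p = 0.00219) in the authors' deposited tables. The direct comparison in the authors' deposited table gave 0.39 (adjusted p = 0.111), with 1545, 1794, 2483 and 2498 normalised counts around the Cpt2 mean of 1589. Whether counting used strand is not known, and Egfl7, at 210 to 479 counts per liver, overlaps Agpat2 by 64 bases on the opposite strand, so reads there cannot be told apart. Gm20532, which spans Agpat2 on that strand, had 0 counts. Agpat3 (chr10:78269178-78352489, minus strand), an AGPAT of the endoplasmic reticulum and Golgi, was at 42.3, 36.3, 47.2 and 46.1 FPKM. Against the reference it had a log2 fold change of 0.26 in the Cpt2 group (adjusted p = 0.421) in the authors' deposited table and a summed one of −0.23 in the Cpt1a knockout. Directly, 5024, 4289, 5593 and 5488 normalised counts against a Cpt2 mean of 7178 made it 1.41-fold lower, as the authors' deposited table gives it (adjusted p = 0.00105).

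The 3 lipins were all lower in the Cpt1a knockout than in the Cpt2 group, but differed in where they stood against the reference. Lpin1 (chr12:16535669-16610966, minus strand) was at 8.36, 9.86, 7.90 and 10.03 FPKM in the 4 livers. Its normalised counts of 1177, 1391, 1118 and 1416 were all far below the authors' reference mean of 10739. The authors' deposited table gave an 8.42-fold lower level (log2 fold change −3.07, adjusted p = 1.86e-05), and only 75 called genes of that table, Lpin1 included, were lower by at least as much. Lpin1 was also 4.74-fold lower in the Cpt2 group (log2 fold change −2.24, adjusted p = 0.00626) in the authors' deposited table, the largest change of the 10 genes in either comparison with the reference. Even so, 380 genes had a smaller adjusted p than Lpin1 in the Cpt1a table and 2390 in the Cpt2 table. Read as a two-sided normal test, the authors' p-values correspond to a standard error of 0.61 and 0.67 on the log2 scale for Lpin1 against the reference, but 0.20 in the direct comparison, which does not use the reference group. The other listed members had 0.13 to 0.24 in the first of these tables and 0.12 to 0.29 in the second. The spread of the reference libraries was not analysed here. In the direct comparison the livers had 1232, 1446, 1161 and 1480.3 normalised counts against a Cpt2 mean of 2373, and Lpin1 was 1.78-fold lower, as the authors' deposited table gives it (adjusted p = 3.36e-04).

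Lpin2 (chr17:71182560-71249817, plus strand), the main lipin of the liver by transcript here, was at 74.4, 55.4, 46.0 and 61.9 FPKM. Unlike Lpin1 it was not called against the reference in either group, with a summed log2 fold change of −0.21 in the Cpt1a knockout and 0.70 in the Cpt2 group (adjusted p = 0.0650) in the authors' deposited tables. Directly, it had 13872, 10280.2, 8549 and 11559 normalised counts against a Cpt2 mean of 20793, 1.88-fold lower, as the authors' deposited table gives it (adjusted p = 1.20e-05). Lpin3 (chr2:160880670-160906002, plus strand), the least abundant lipin, was at 1.28, 1.84, 1.52 and 1.53 FPKM, from 71 to 102 counts. It had a log2 fold change of −0.48 in the Cpt1a knockout (adjusted p = 0.183) and rose 1.74-fold in the Cpt2 group (log2 fold change 0.80, adjusted p = 0.00180) in the authors' deposited tables. Directly, the livers had 72.1, 103, 85.3 and 86.5 normalised counts against a Cpt2 mean of 212, and Lpin3 was 2.45-fold lower (adjusted p = 5.11e-09) in the authors' deposited table, the largest difference of the 10 genes there.

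The last step was lower in the Cpt1a knockout by both of its genes, which code for unrelated proteins. Dgat2 (chr7:99153658-99182719, minus strand), which works mainly on newly made fatty acids, was at 125.5, 119, 121 and 107 FPKM and varied least of the 10 genes. Its 5634, 5370.2, 5459.6 and 4827 normalised counts were all below the reference mean of 7669, a 1.44-fold lower level (log2 fold change −0.53, adjusted p = 0.00142) in the authors' deposited table. Its log2 fold change in the Cpt2 group was −0.19 (adjusted p = 0.291) in the authors' deposited table. The direct comparison in the authors' deposited table, with 5897, 5583, 5674 and 5044 against a Cpt2 mean of 7084, was 1.28-fold lower (adjusted p = 0.00785). Dgat1 (chr15:76502015-76511953, minus strand), which also re-esterifies fatty acids taken up from outside the cell, was at 10.1, 8.14, 9.61 and 8.41 FPKM. Its 450.1, 363, 429.7 and 376 normalised counts were below the reference mean of 618, a 1.53-fold lower level (log2 fold change −0.61, adjusted p = 0.0211) in the authors' deposited table. In the Cpt2 group its log2 fold change was 0.31 (adjusted p = 0.240) in the authors' deposited table. Directly, it had 471, 377, 447 and 393 against a Cpt2 mean of 804, 1.91-fold lower with the smallest adjusted p of the 10 genes (8.64e-11), in the authors' deposited table.

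**Figure D4:**
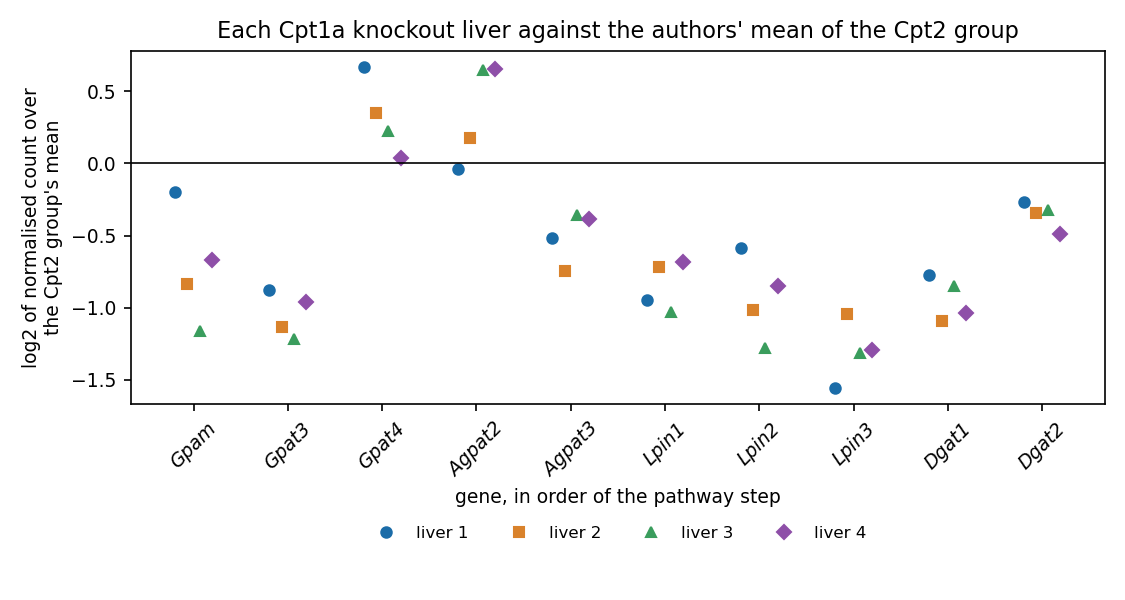
Each liver's normalised count over the authors' mean of the Cpt2 group, as a log2 ratio (y axis), for the 10 genes in pathway order, with 1 point per liver. All 4 livers lie below 0 for 8 genes. For Gpat4 all 4 lie above it, and for Agpat2 liver 1 lies just below it and the other 3 above.

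Other genes of glycerolipid metabolism, in 6 lists of 63 genes in all, were called in both directions. In the Cpt1a knockout against the reference, the authors' deposited table calls 6 of 63 higher and 6 lower, and that of the Cpt2 group 10 higher and 7 lower. The first of these is 9.52% in each direction, near the shares of all genes (6.81% higher and 7.60% lower). The 7 lower in the Cpt2 group are 11.1%, near 10.7%. Those counts say nothing particular to the lists. The 10 of 63 higher in the Cpt2 group are a larger share than the 10.3% of all genes called higher, which was not tested. In either direction, 27.0% of the lists was called in the Cpt2 group, beside 21.0% of all genes, a difference that was not tested. The authors' deposited table of the direct comparison calls 7 higher and 14 lower, with a median log2 fold change of 0.02, where the 10 members had −0.75. Of all genes tested there, 14.2% were called higher. The share of genes called lower was 22.2% in these lists and 80.0% among the members, beside 14.6% of all genes tested, a description of lists of unequal size with no test.

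Supply of glycerol-3-phosphate differed by gene. Gk, glycerol kinase, was at 59.7, 44.7, 42.5 and 43.7 FPKM and rose 2.10-fold in the Cpt1a knockout (adjusted p = 1.31e-04) and 2.29-fold in the Cpt2 group (adjusted p = 1.50e-06) in the authors' deposited tables. Gpd1, the cytosolic dehydrogenase that makes glycerol-3-phosphate, was at 99.7 to 134 FPKM and was called in none of the 3 tables. Gpd2, the mitochondrial dehydrogenase that consumes it, was 2.88-fold lower in the Cpt1a knockout than in the Cpt2 group (adjusted p = 8.22e-10) in the authors' deposited table. Aqp3, a glycerol channel, had authors' means of 16.6 normalised counts in the Cpt1a knockout and 1.74 in the reference (adjusted p = 0.00328 in the authors' deposited table), from 4 to 31 counts per liver. It was 31.2-fold higher in the Cpt2 group than in the reference (adjusted p = 2.85e-13) in the authors' deposited table. Directly, Aqp3 was 3.38-fold lower in the Cpt1a knockout than in the Cpt2 group (adjusted p = 2.87e-04), as the authors' deposited table gives it. The monoacylglycerol route, an alternative way to diacylglycerol, was almost silent in the Cpt1a knockout livers, with 7 to 12 counts of Mogat1 and 0 to 3 of Mogat2 per liver. In the Cpt2 group the authors' mean was 39.6 normalised counts for Mogat1 and 32.6 for Mogat2, and both were called in the direct comparison of the authors' deposited table (adjusted p = 6.54e-06 and 5.37e-08). Against the reference they were 5.29-fold and 39.2-fold higher in the Cpt2 group (adjusted p = 1.77e-04 and 4.81e-07) in the authors' deposited table. Neither was called in the Cpt1a knockout against the reference, where their summed log2 fold changes were 0.44 and 0.24.

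Diacylglycerol kinases return diacylglycerol to phosphatidic acid. Of 10 such genes, Dgkh and Dgke were called higher than the reference in both groups, and none lower, in the authors' deposited tables. Of all genes tested, 6.81% were called higher in the Cpt1a knockout and 10.3% in the Cpt2 group. Dgkb, Dgkg, Dgki and Dgkk had 0 counts in all 4 Cpt1a knockout livers. Both comparisons use the same reference group, so these calls are not independent. Dgkh was at 1.93, 2.14, 1.37 and 2.34 FPKM and rose 6.16-fold in the Cpt1a knockout (adjusted p = 3.14e-21) in the authors' deposited table. Among the other phosphatases and acyltransferases, Plpp1, a phosphatase of lipid phosphates, rose 1.81-fold in the Cpt1a knockout (adjusted p = 4.82e-04), and Plpp2 rose 2.11-fold in the Cpt2 group (adjusted p = 1.64e-06), in the authors' deposited tables. In the phospholipid branches Chpt1, which turns diacylglycerol into phosphatidylcholine, was at 74.7, 88.8, 74.7 and 83.9 FPKM. It rose 2.17-fold against the reference (adjusted p = 5.49e-06) and was 2.49-fold higher than in the Cpt2 group (adjusted p = 4.99e-27) in the authors' deposited tables, the direction opposite to that of the 8 members in the direct comparison. Of the 18 genes of this list, the direct comparison in the authors' deposited table calls 4 higher and 4 lower. That is 44.4% of the list called, beside 28.8% of all genes tested, of which 14.2% were higher and 14.6% lower. The other 3 called higher were Crls1, cardiolipin synthase (1.52-fold, adjusted p = 2.14e-06), Pemt, which makes phosphatidylcholine by methylation (1.62-fold, adjusted p = 3.23e-06), and Etnk2, an ethanolamine kinase (2.14-fold, adjusted p = 8.65e-05), in the authors' deposited table. Etnk2 was nevertheless lower than the reference in both groups, 1.77-fold in the Cpt1a knockout (adjusted p = 0.0108) and 3.82-fold in the Cpt2 group (adjusted p = 3.51e-16), in the authors' deposited tables. Pemt was 1.87-fold lower than the reference in the Cpt2 group (adjusted p = 5.69e-07) in the authors' deposited table. In the Cpt1a knockout Pemt was not called against the reference, and its summed log2 fold change was −0.21. Those called lower in the direct comparison included Cdipt, phosphatidylinositol synthase (1.73-fold, adjusted p = 8.04e-10), in the authors' deposited table. Chka, a choline kinase, was another (1.59-fold, adjusted p = 5.90e-06 in the authors' deposited table). Cdipt was also 1.42-fold lower than the reference in the Cpt1a knockout (adjusted p = 0.00611) in the authors' deposited table.

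Among 19 regulators, 4 were lower and none higher in the Cpt1a knockout against the reference in the authors' deposited table, namely Srebf1, Ppargc1a, Hnf4a and Insig2. This is 21.1% of the list, beside 7.60% of all genes called lower. For the Cpt2 group, 2 of the 19 are called higher and 4 lower, Srebf1 among the latter, in the authors' deposited table. The 4 lower are 21.1% of the list. Of all genes tested in that comparison, 10.3% were called higher and 10.7% lower. Ppargc1a, the PGC-1alpha gene and a known activator of Lpin1, was at 2.48, 2.84, 1.81 and 3.08 FPKM and fell 2.35-fold (adjusted p = 0.00264) in the authors' deposited table. Its value in the Cpt2 group, −0.70 on the log2 scale, did not pass (adjusted p = 0.172) in the authors' deposited table. Srebf1, a driver of lipid synthesis genes, fell 2.77-fold (adjusted p = 2.22e-08) in the authors' deposited table. Insig2, which holds SREBP in the endoplasmic reticulum, was 1.66-fold lower in the Cpt1a knockout (adjusted p = 0.0211) but 1.63-fold higher in the Cpt2 group (adjusted p = 0.0329) in the authors' deposited tables. It was 2.73-fold lower in the direct comparison of the authors' deposited table (adjusted p = 3.97e-12), while Insig1, its paralog, was 2.07-fold higher there (adjusted p = 4.06e-06). Against the reference, Insig1 was 2.40-fold lower in the Cpt2 group (adjusted p = 1.01e-05) in the authors' deposited table. It was not called in the Cpt1a knockout, with a summed log2 fold change of −0.21. Tfe3, a transcription factor of lysosomal and lipid genes, was 1.51-fold lower in the direct comparison (adjusted p = 3.54e-05 in the authors' deposited table). Ctdnep1 and Cnep1r1, the phosphatase pair that acts on lipin proteins, were at 11.9 ± 1.15 and 4.92 ± 0.449 FPKM (SD, n = 4 each) and were called in none of the 3 tables.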

How the data were processed

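RNA-seq of 4 livers, 1 group, was used. The submitters' processing notes name HISAT2 and the builds GRCm38 and mm10. For the counter, annotation and strand setting, nothing is given in the sources used here. The deposited count table holds raw read counts per gene, and the authors also gave FPKM per gene and sample. The tables of comparisons, per the file headers, hold the authors' log2 fold change, p-value and adjusted p-value per gene, and the authors' normalised counts, a signal scaled separately for each comparison, with their group means. Another 8 columns of the count table match no sample of this series and were not used. The series holds 1 group, so no test between groups was fitted, and calls rest on the authors' adjusted p below 0.05. Genes with 1 in that column were taken as left out of the adjustment. The number of genes tested in the partial table, 16862, was worked out from its p and adjusted p.

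Genes were named by a rule. All 10 members were named, with called genes of the other pathway lists from the 12 with the smallest adjusted p per comparison, up to 3 uncalled ones per list by FPKM, and the 3 genes most like the member of widest spread. Cnep1r1 was chosen after its values were seen, as the partner of Ctdnep1. Ctdnep1, Agpat4, Dgkb, Dgkg, Dgki and Dgkk were also named outside this rule. The members and lists were chosen with earlier results of these data known. Cell type lists were hepatocyte, adipocyte, Kupffer cell and macrophage, lymphocyte, endothelial, stellate cell and cholangiocyte markers. In the Cpt1a knockout against the reference, the endothelial, stellate and cholangiocyte lists had 0, 1 and 0 genes called higher, the Kupffer cell list 2, the lymphocyte list 3 and the adipocyte list 0, in the authors' deposited table. Alternatives were RPKM from counts with edgeR 4.0.16 TMM or DESeq2 1.42.0 library sizes (R 4.3.3), other thresholds, a minimum mean count of 10, and leaving out each liver. The scaling, the adjustment and the search for like genes were tested on simulated data. Proteins were not analysed here.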

Additional observations from a re-analysis of the deposited data

Results flagged for a closer look

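The effects of the Cpt1a knockout and of the Cpt2 group, each against the same reference group, differed for 8 of the 10 members by the authors' deposited direct comparison, which is a test of that difference. The log2 fold change of the Cpt1a knockout against the Cpt2 group was −0.67 for Gpam, −1.04 for Gpat3, −0.49 for Agpat3, −0.84 for Lpin1, −0.91 for Lpin2, −1.29 for Lpin3, −0.93 for Dgat1 and −0.35 for Dgat2 in the authors' deposited table. Of the 8, Gpat3 and Lpin1 were called in both comparisons with the reference, and Gpam, Agpat3 and Lpin2 in neither, in the authors' deposited tables. These calls share the reference group and are not independent, so no overlap is read from them. No liver stood apart from the other 3 for any of the 10 genes by Dixon's ratio, whose highest value was 0.667, for Dgat2. Among the 63 other pathway genes, 1 liver stood apart from the rest by that ratio for Agpat4 (0.918), Gk (0.868, liver 1 high at 59.7 FPKM) and Chka (0.852). Chance flags about 1 in 20 such groups.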

How the results depend on the processing

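No paired analysis was possible because the series holds 1 group of samples, and livers could not be left out of the authors' comparisons, whose test was not refitted. The adjustment could not be repeated for the table that lists only part of the genes. No result reversed. The summed level of the 10 members, 404 FPKM, was 452.4 with RPKM from edgeR TMM and 452.4 from DESeq2 library sizes (the cause was not tested), and 393 to 412 without 1 liver. Each member's RPKM was 1.12 times its FPKM. The share of Lpin2 in lipin transcript, 84.6%, does not depend on the library size and was 83.3 to 85.3% without 1 liver. With an adjusted p below 0.01, the members called in the Cpt1a knockout against the reference went from 4 to 2 (Lpin1 and Dgat2). When a change of 2-fold or more was also asked for, they were 1 (Lpin1), against the reference in the Cpt2 group 2 (Gpat3 and Lpin1), and in the direct comparison 2 (Gpat3 and Lpin3). With that fold the other pathway genes called were 7, 11 and 8 in these 3 comparisons, in place of 12, 17 and 21. At an unadjusted p below 0.05 the first of these counts was 22. In the direct comparison 8 members were lower and none higher with adjustment over genes averaging 10 counts or more in the 4 livers, which added Gpam (6 in place of 5) in the Cpt2 group against the reference. Gpat4 and Agpat2 had an unadjusted p below 0.05, in the higher direction, in the direct comparison. Lpin3, at 71 to 102 counts, and Mogat1, Mogat2 and Aqp3, at 31 counts or fewer per liver, are the genes limited most by depth.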
